A study of Mus musculus with 14 samples.

Results

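In total 9 genes were examined that mark tissue next to the hippocampus, the thalamus and the neocortex with the subiculum, in RNA-seq of mouse dorsal hippocampus. They were Slc17a6, Tcf7l2, Prkcd, Ntng1, Rora and Syt2 as thalamic markers, and Tshz2, Nxph3 and Coro6 as neocortical and subicular markers. The 9 names were taken as a list of neighbouring-tissue markers of which several were higher after CSP-TTK21 than after vehicle, so they were chosen by the measured difference between the TAU MOL and TAU VEH libraries of this series, and that difference is a description and not a test. The 9 names matched 10 rows of each count table, of 26570 genes listed in the basal table and 25933 in the learning table, because Ntng1 has a second record that holds a single exon of 327 bases.

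Counts came from 14 libraries of the dorsal hippocampus of male C57BL6 mice aged 8 months. The basal experiment held basal WT (n = 3) and basal THY-Tau22 (n = 2) mice at rest. The study describes no injection of these mice, although a legend of its appendix names the groups WT VEH and TAU VEH. The learning experiment held 4 groups: WT VEH_HC (n = 3), WT mice injected with saline and left in the home cage, WT VEH (n = 2), WT mice injected with saline and trained in the Morris water maze, TAU VEH (n = 2), THY-Tau22 mice given CSP (carbon nanospheres without the compound) and trained, and TAU MOL (n = 2), THY-Tau22 mice given CSP-TTK21 and trained. CSP-TTK21 is an activator of the acetyltransferases CBP and p300 coupled to these spheres. THY-Tau22 mice are heterozygous for a mutated human Tau driven in neurons by a Thy1 promoter. WT VEH differed from TAU VEH in both genotype and injected agent, which cannot be told apart. The tissue was dissected fresh, and nothing in the labels says how far neighbouring tissue was included.

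The thalamus lies beneath the dorsal hippocampus and the neocortex above it, with the subiculum at the border of the hippocampal formation. Excitatory neurons of the thalamus load glutamate with the transporter encoded by Slc17a6, whereas those of hippocampus and neocortex mostly use its relative Slc17a7. Markers of neighbouring tissue are therefore commonly read in dissected hippocampus as a gauge of where the cut fell, although most of these genes are also expressed at some level in hippocampal cells. In whole tissue, fewer cells of a type and less RNA per cell cannot be told apart.

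All 9 genes are protein coding. In the mm9 build used for the counts, the thalamic markers were at chr7:58877200-58926495 for Slc17a6, chr19:55816300-56008144 for Tcf7l2, chr14:31408542-31439396 for Prkcd, chr3:109582958-109938426 for Ntng1, chr9:68501593-69236053 for Rora and chr1:136605877-136649726 for Syt2. The neocortical and subicular markers were at chr2:169458671-169897316 for Tshz2, chr11:95371159-95375884 for Nxph3 and chr11:77275913-77283986 for Coro6. Exons of the antisense gene Gm16898 cover 66.7% of the exonic length of Tshz2. The library kit did not keep the strand, so reads of the pair cannot be told apart and the level of Tshz2 is uncertain to that extent. The corresponding overlap was 0.626% for Rora, with Gm15511.

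Promoter sequences of RefSeq (build GRCm38.p6, 250 bases before to 50 bases after a start) were at hand for 8 of the 9 genes, with 13 starts in all. Nxph3 had no entry. Capitals mark 3 motifs searched on both strands: TGACG, the short form of the cAMP response element bound by CREB, the partner of CBP, AGGTCA, the core of ROR binding sites, and CTTTGA, the core of TCF binding sites. The promoters shown are those of Syt2, Slc17a6 and Tcf7l2 because they hold the short cAMP response element, and that of Prkcd because it was the thalamic marker with the highest level per kilobase. They were read on the strand of each gene.

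Syt2, chr1:134646362-134646661, plus strand: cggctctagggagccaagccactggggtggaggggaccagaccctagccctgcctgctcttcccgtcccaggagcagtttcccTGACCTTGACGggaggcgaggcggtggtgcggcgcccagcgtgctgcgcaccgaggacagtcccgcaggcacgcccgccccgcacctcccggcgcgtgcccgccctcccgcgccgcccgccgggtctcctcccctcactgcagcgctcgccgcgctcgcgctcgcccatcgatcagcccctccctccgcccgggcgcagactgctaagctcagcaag

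Slc17a6, chr7:51624387-51624686, plus strand, the second of its starts: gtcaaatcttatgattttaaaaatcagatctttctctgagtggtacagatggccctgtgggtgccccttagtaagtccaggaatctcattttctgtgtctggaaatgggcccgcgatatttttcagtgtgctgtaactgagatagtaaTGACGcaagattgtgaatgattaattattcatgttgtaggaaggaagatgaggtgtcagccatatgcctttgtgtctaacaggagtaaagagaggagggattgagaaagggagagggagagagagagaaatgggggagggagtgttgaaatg

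Tcf7l2, chr19:55741560-55741859, plus strand: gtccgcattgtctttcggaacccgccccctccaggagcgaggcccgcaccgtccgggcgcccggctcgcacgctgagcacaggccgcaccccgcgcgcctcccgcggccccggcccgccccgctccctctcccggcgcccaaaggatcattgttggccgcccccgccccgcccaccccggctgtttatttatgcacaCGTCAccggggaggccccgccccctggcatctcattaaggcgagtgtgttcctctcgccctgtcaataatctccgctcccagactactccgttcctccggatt

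Prkcd, chr14:30626159-30626458, minus strand: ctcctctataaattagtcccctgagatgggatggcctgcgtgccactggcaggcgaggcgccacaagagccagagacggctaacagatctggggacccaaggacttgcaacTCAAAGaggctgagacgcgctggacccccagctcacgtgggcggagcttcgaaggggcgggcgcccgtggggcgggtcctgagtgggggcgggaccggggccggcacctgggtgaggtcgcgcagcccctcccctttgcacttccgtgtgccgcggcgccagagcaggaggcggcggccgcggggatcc

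The short cAMP response element began at -161 in Syt2, at -102 in Slc17a6 and at -53 in Tcf7l2, counted from the start site. It was in 3 of the 13 promoters of these genes and in 20.8% of the 32851 promoters of the table. The full element TGACGTCA was in 0 of the 13 and in 1.79% of all promoters. The ROR core was in 1 of the 13, that of Syt2 at -167 directly before the cAMP response element, and in 16.3% of all. The TCF core was in 2 of the 13, Prkcd and the second start of Coro6, and in 16.0% of all. The Syt2, Tcf7l2 and Prkcd windows shown were rich in GC at 74.3%, 70.0% and 69.3%, above the median of 52.7% over all promoters, and the Slc17a6 window was not, at 43.0%. A match of letters says nothing of whether a factor binds there.

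Levels are CPM, the count of a gene relative to the library total, scaled with TMM factors for differences in library composition. Each table has its own scale, and values of the basal and learning tables are set side by side only. Total counts per library ran from 24693713 in TAU VEH 2 to 52180305 in WT VEH_HC 2. TAU VEH 2 held 81 counts for Tshz2, 134 for Slc17a6 and 135 for Coro6. All 10 rows passed the filter on low counts in both tables. Their counts ran, the second Ntng1 record aside, from 56 for Tshz2 to 4159 for Prkcd, both in basal WT 1. The second Ntng1 record held 6 to 24 counts per library and is too low for fine comparisons. The labelled tissue was clear from its defining markers: Prox1 of dentate granule cells ran from 93.3 to 134 CPM, Wfs1 of CA1 from 141 to 330 CPM and Grik4 of CA3 from 62.5 to 117 CPM over the 14 libraries.

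Per kilobase of exons, Prkcd had the highest mean level in the 5 basal libraries at 13.7 CPM per kb, followed by Nxph3 at 5.77, Ntng1 at 5.23 and Syt2 at 5.07. In the 9 learning libraries Prkcd was again first at 7.49 CPM per kb, with Syt2 at 7.06 and Nxph3 at 7.02 close behind. Tcf7l2, at 0.951 and 0.750 CPM per kb in basal and learning libraries, and Tshz2, at 0.744 and 0.711, were the lowest. The order of the genes says nothing of the amount of thalamus or neocortex, because each gene is also read in other cells.

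**Figure D1:**
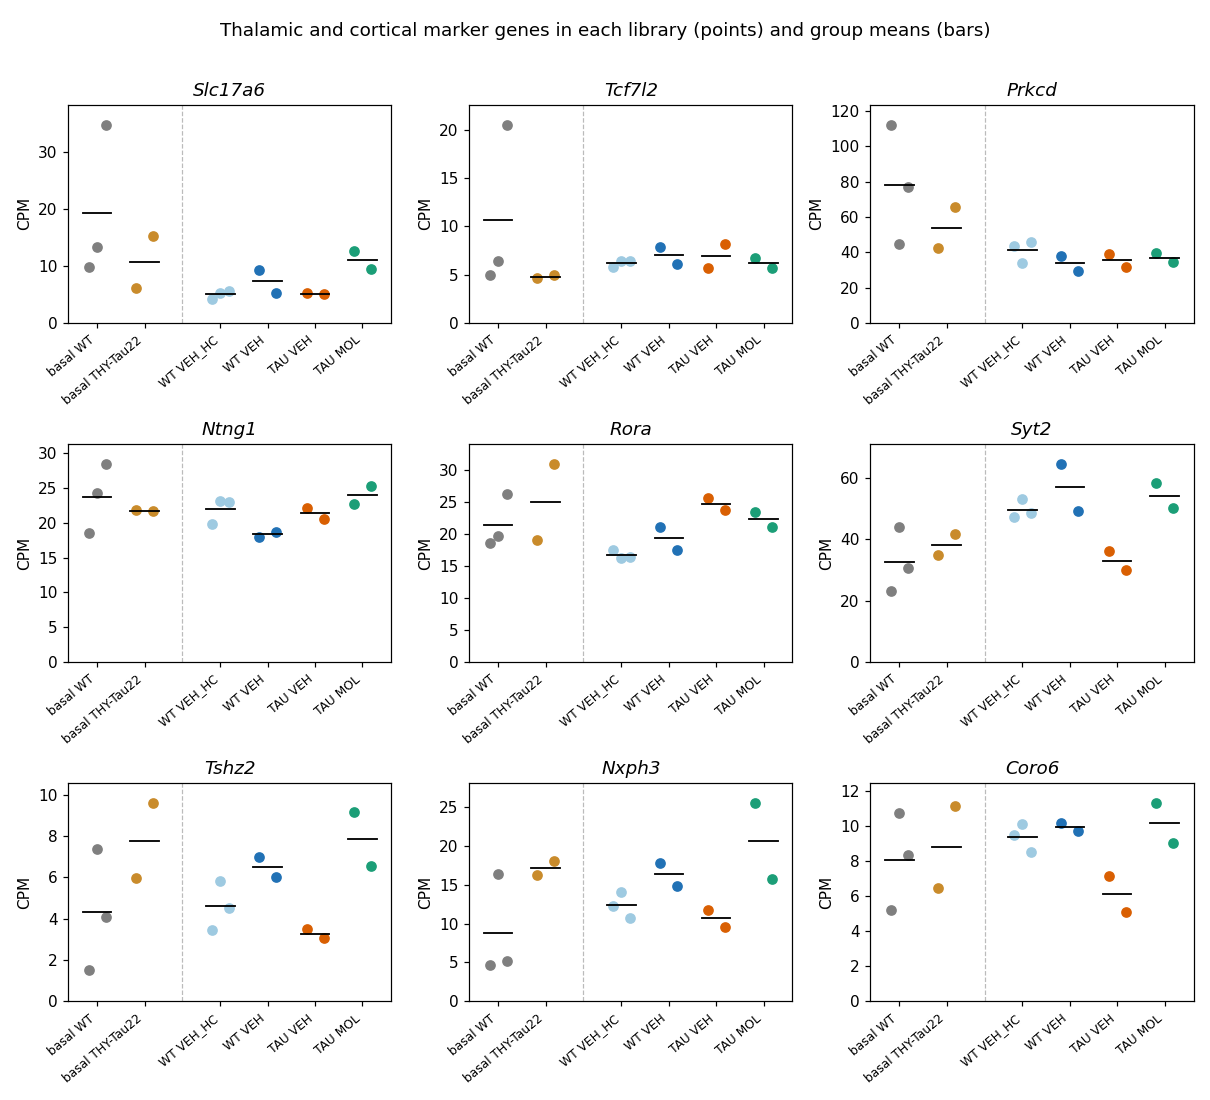
Level of each gene in CPM (vertical axes, starting at 0) in each of the 14 libraries (points) and the group means (bars), for 6 groups on the horizontal axes, with a dashed line between the basal and learning tables, which have separate scales. Basal WT 3 stands above the other basal libraries for Slc17a6 (34.8 CPM) and Tcf7l2 (20.6 CPM), and in the learning libraries both TAU VEH points lie below both TAU MOL points for Slc17a6, Syt2, Tshz2, Nxph3 and Coro6.

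Slc17a6, the glutamate transporter gene, was measured in the learning libraries at 9.31 and 5.32 CPM in WT VEH, at 4.20, 5.30 and 5.55 CPM in WT VEH_HC, at 5.23 and 5.06 CPM in TAU VEH and at 12.7 and 9.50 CPM in TAU MOL. Both TAU MOL libraries were above all 7 others. WT VEH 1 was well above WT VEH 2, and the latter was within the range of the home-cage libraries. In the basal libraries it was at 9.75, 13.3 and 34.8 CPM in WT and at 6.14 and 15.3 CPM in THY-Tau22, so that basal WT 3 alone was 3.02 times the median of the other 4.

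Syt2, a calcium sensor of fast transmitter release in subcortical neurons and fast-spiking interneurons, was at 64.5 and 49.3 CPM in WT VEH, at 47.2, 53.2 and 48.4 CPM in WT VEH_HC, at 36.1 and 29.9 CPM in TAU VEH and at 58.2 and 50.0 CPM in TAU MOL. Both TAU VEH libraries lay below the other 7, which overlapped among each other. The basal levels were 23.3, 44.0 and 30.6 CPM in WT and 34.7 and 41.8 CPM in THY-Tau22, with overlap between the genotypes.

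Tcf7l2, a transcription factor of the Wnt pathway that marks thalamic and habenular neurons, was at 7.88 and 6.09 CPM in WT VEH, at 5.80, 6.36 and 6.44 CPM in WT VEH_HC, at 5.69 and 8.23 CPM in TAU VEH and at 6.77 and 5.74 CPM in TAU MOL. The 4 learning groups overlapped, and the highest of the 9 libraries was 1.45 times the lowest. In the basal libraries it was at 4.97, 6.44 and 20.6 CPM in WT and at 4.68 and 4.92 CPM in THY-Tau22. Both THY-Tau22 libraries were below all WT libraries, and basal WT 3 was far above the other 4.

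Prkcd, a protein kinase C of thalamic relay neurons, was at 37.9 and 29.5 CPM in WT VEH, at 43.8, 34.0 and 45.7 CPM in WT VEH_HC, at 39.0 and 31.9 CPM in TAU VEH and at 39.6 and 34.4 CPM in TAU MOL. No pair of neighbouring groups was separated. The basal levels of 112, 44.5 and 77.0 CPM in WT and 42.2 and 65.8 CPM in THY-Tau22 were more spread, with basal WT 1 the highest.

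Ntng1, an axonal adhesion protein of thalamocortical neurons, was at 18.0 and 18.7 CPM in WT VEH, at 19.8, 23.2 and 22.9 CPM in WT VEH_HC, at 22.1 and 20.6 CPM in TAU VEH and at 22.7 and 25.3 CPM in TAU MOL. The 2 WT VEH libraries were the lowest of the 9. The basal levels were 18.5, 24.3 and 28.5 CPM in WT and 21.8 and 21.7 CPM in THY-Tau22. Its second record was at 0.162 to 0.534 CPM in the 5 basal and at 0.280 to 0.524 CPM in the 9 learning libraries.

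Rora, a nuclear receptor of thalamic neurons and of the granular layer of the neocortex, was at 21.1 and 17.6 CPM in WT VEH, at 17.6, 16.4 and 16.4 CPM in WT VEH_HC, at 25.6 and 23.7 CPM in TAU VEH and at 23.4 and 21.2 CPM in TAU MOL. The 4 libraries of THY-Tau22 mice were above the 5 of WT mice, by 21.2 against 21.1 CPM at the closest, which was so for no other of the 9 genes. The basal levels overlapped, at 18.6, 19.7 and 26.3 CPM in WT and 19.0 and 31.0 CPM in THY-Tau22.

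Tshz2, a zinc finger transcription factor of neocortical neurons, was at 6.96 and 6.01 CPM in WT VEH, at 3.43, 5.80 and 4.53 CPM in WT VEH_HC, at 3.47 and 3.06 CPM in TAU VEH and at 9.17 and 6.56 CPM in TAU MOL. TAU VEH 2 was the lowest of the 9, and TAU VEH 1 lay just above WT VEH_HC 1. In the basal libraries Tshz2 was at 1.51, 7.38 and 4.05 CPM in WT and at 5.96 and 9.60 CPM in THY-Tau22, a spread of 6.34-fold between the lowest and highest library, the widest of the 9 genes there.

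Nxph3, a secreted ligand of neurexins, was at 17.9 and 14.9 CPM in WT VEH, at 12.2, 14.1 and 10.8 CPM in WT VEH_HC, at 11.8 and 9.62 CPM in TAU VEH and at 25.6 and 15.7 CPM in TAU MOL. TAU MOL 1 stood above all others and TAU MOL 2 was within the range of WT VEH. The basal levels were 4.67, 16.4 and 5.15 CPM in WT and 16.2 and 18.2 CPM in THY-Tau22, where basal WT 2 was like the THY-Tau22 libraries and the other WT libraries were not.

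Coro6, an actin-binding coronin, was at 10.2 and 9.69 CPM in WT VEH, at 9.51, 10.1 and 8.50 CPM in WT VEH_HC, at 7.17 and 5.09 CPM in TAU VEH and at 11.3 and 9.03 CPM in TAU MOL. Both TAU VEH libraries were below the other 7. The basal levels were 5.19, 10.7 and 8.33 CPM in WT and 6.48 and 11.1 CPM in THY-Tau22.

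The order of the 4 learning groups by their means was TAU MOL, WT VEH, WT VEH_HC and TAU VEH for Tshz2, Nxph3 and Coro6. Slc17a6, Tshz2, Nxph3 and Coro6 were highest in TAU MOL, at 11.1 ± 2.27, 7.86 ± 1.85, 20.7 ± 6.96 and 10.2 ± 1.61 CPM (SD, n = 2). Of these, Tshz2, Nxph3 and Coro6 overlapped with WT VEH in TAU MOL, and Slc17a6 did not. Syt2 was highest in WT VEH at 56.9 ± 10.8 CPM (SD, n = 2), where it overlapped with TAU MOL at 54.1 ± 5.82 CPM (SD, n = 2). The lowest group was TAU VEH for Syt2, Tshz2, Nxph3 and Coro6, at 33.0 ± 4.45, 3.27 ± 0.295, 10.7 ± 1.54 and 6.13 ± 1.47 CPM (SD, n = 2). For Slc17a6 it was WT VEH_HC at 5.01 ± 0.720 CPM (SD, n = 3), whose range overlapped with that of TAU VEH. Neighbours in the order of these 5 genes that did not overlap were TAU MOL and WT VEH as well as WT VEH and TAU VEH for Slc17a6, the latter by 5.32 against 5.23 CPM, WT VEH and WT VEH_HC for Tshz2 and Nxph3, and WT VEH_HC and TAU VEH for Syt2 and Coro6. For Rora the order was TAU VEH, TAU MOL, WT VEH and WT VEH_HC, and only the last pair overlapped. For Ntng1 only TAU VEH and WT VEH, the lowest, did not overlap, and for Prkcd and Tcf7l2 all neighbours overlapped.

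CSP-TTK21 against vehicle in trained THY-Tau22 mice is the contrast that chose the genes, and its values are descriptive. The log2 fold change (TAU MOL minus TAU VEH, n = 2 each) was 1.26 ± 0.23 (SE) for Tshz2, 1.11 ± 0.24 for Slc17a6, 0.94 ± 0.21 for Nxph3, 0.71 ± 0.13 for Syt2 and 0.71 ± 0.17 for Coro6. The fold ran from 1.63 for Syt2 and Coro6 to 2.39 for Tshz2. The other 4 were closer to 0, at 0.17 ± 0.10 for Ntng1, 0.05 ± 0.16 for Prkcd, -0.13 ± 0.18 for Tcf7l2 and -0.15 ± 0.10 for Rora. The genes of the list thus did not move as a group, and the 5 that were higher include 2 of the 6 thalamic and all 3 of the neocortical and subicular markers. Both TAU MOL libraries were above both TAU VEH libraries in 6 of the 10 rows, these 5 genes and Ntng1, beside 21.5% of all 16820 genes tested. For a call by edgeR's quasi-likelihood test, the Benjamini-Hochberg adjusted p had to be under 0.05 and the log2 fold change more than 0.2 from 0. It called 0 of the 10 rows and 0% of all genes, while 5 rows and 6.33% of all genes had an unadjusted p under 0.05. DESeq2 called 5 of the 10 rows, the 5 genes named, and 0.309% of all genes. Nothing is read from these counts, since the contrast chose the genes. Leaving out TAU MOL 1 gave a log2 fold change of 0.54 for Nxph3 and 0.88 for Slc17a6, and leaving out TAU MOL 2 gave 1.24 and 1.30.

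**Figure D2:**
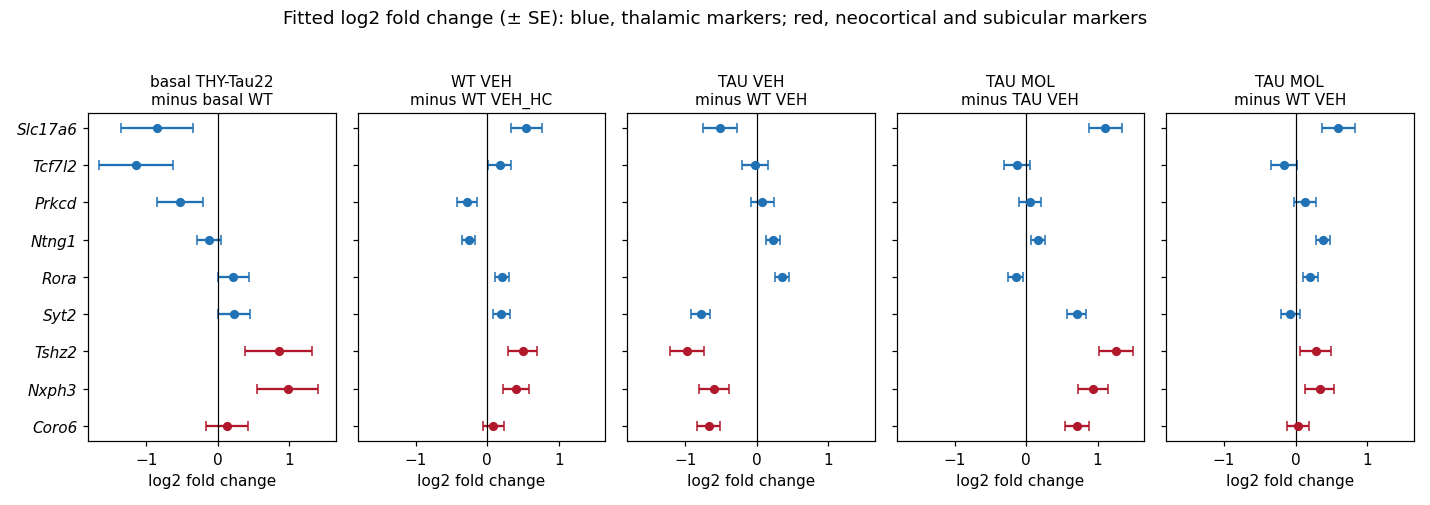
Fitted log2 fold change (horizontal axes) of each gene (rows) in 5 comparisons, one per panel, with bars for ± SE from edgeR, thalamic markers in blue and neocortical and subicular markers in red. In the panel TAU MOL minus TAU VEH, Tshz2 (1.26), Slc17a6 (1.11), Nxph3 (0.94), Syt2 (0.71) and Coro6 (0.71) lie to the right of 0 and the other 4 genes close to it.

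TAU VEH and WT VEH, both trained, differ in genotype and in injected agent, which cannot be told apart. Their comparison holds libraries of the contrast that chose the genes, and the members are therefore given without p. The log2 fold change (TAU VEH minus WT VEH, n = 2 each) was -0.98 ± 0.24 (SE) for Tshz2, -0.78 ± 0.13 for Syt2, -0.67 ± 0.17 for Coro6, -0.60 ± 0.21 for Nxph3 and -0.51 ± 0.24 for Slc17a6. These 5 are the genes that were higher in TAU MOL. The value of Slc17a6 rested on WT VEH 1, being -0.040 without that library and -0.85 without WT VEH 2. Both comparisons share the TAU VEH libraries, so a low value there gives opposite signs in them by construction. Rora was at 0.35 ± 0.10 and Ntng1 at 0.22 ± 0.10, and Prkcd (0.08 ± 0.16) and Tcf7l2 (-0.03 ± 0.18) were near 0, the latter at 0.12 when scaled by library size alone. Both TAU VEH libraries were below both WT VEH libraries in 5 of the 10 rows, beside 29.4% of all genes, and edgeR called 4 rows (Coro6, Rora, Syt2 and Tshz2) beside 14.4% of all genes. Nothing is read from these counts, since the TAU VEH libraries took part in the choice of the genes.

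TAU MOL was also set against WT VEH (n = 2 each), where the members are again without p. The log2 fold change (TAU MOL minus WT VEH) was 0.60 ± 0.23 (SE) for Slc17a6, 0.39 ± 0.10 for Ntng1, 0.34 ± 0.20 for Nxph3 and 0.28 ± 0.22 for Tshz2. Without TAU MOL 1, Nxph3 was at -0.059 and Tshz2 at 0.014, and Slc17a6 was at 1.07 without WT VEH 1 and at 0.26 without WT VEH 2. Syt2, at -0.07 ± 0.13, and Coro6, at 0.03 ± 0.16, were near the WT VEH level, Syt2 at 0.05 when scaled by library size alone. Rora was at 0.21 ± 0.10, Prkcd at 0.13 ± 0.16 and Tcf7l2 at -0.16 ± 0.18. Without WT VEH 1, Rora was at 0.36, Prkcd at 0.34, Tcf7l2 at 0.05 and Syt2 at 0.15. Without WT VEH 2 they were at 0.08, -0.03, -0.33 and -0.25. Both TAU MOL libraries were above both WT VEH libraries in 4 of the 10 rows, beside 25.6% of all genes, and edgeR called 1 row, Ntng1, beside 5.63% of all genes. Nothing is read from these counts either, since the TAU MOL libraries took part in the choice.

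Training was tested on libraries that the choice of the genes did not use, WT VEH (n = 2) against WT VEH_HC (n = 3). No member passed the test. The largest log2 fold change (WT VEH minus WT VEH_HC) was 0.54 ± 0.21 (SE) for Slc17a6, with an edgeR adjusted p of 0.126, followed by 0.49 ± 0.20 for Tshz2 (edgeR adjusted p = 0.143) and 0.40 ± 0.18 for Nxph3 (adjusted p = 0.181). Prkcd was at -0.29 ± 0.14 (edgeR adjusted p = 0.213) and Ntng1 at -0.26 ± 0.09 (edgeR adjusted p = 0.0874). The value of Slc17a6 rested on WT VEH 1, as it was 0.082 without that library and 0.89 without WT VEH 2. Without WT VEH 1, Prkcd was at -0.48 and Nxph3 at 0.26, and without WT VEH 2 they were at -0.12 and 0.53. Syt2, Rora, Tcf7l2 and Coro6 lay between 0.08 and 0.21, with Syt2 and Tcf7l2 just below 0 without WT VEH 1, and the second Ntng1 record was at -0.39 ± 0.37. Both WT VEH libraries were above all 3 home-cage libraries in 2 of the 10 rows, Tshz2 and Nxph3, beside 23% of all genes. Of the 10 rows, edgeR called 0 and DESeq2 called 0, and 4 had an unadjusted p under 0.05 in edgeR, as had 27.8% of all genes, whereas 8.4% of all genes were called by edgeR and 11% by DESeq2.

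Tauopathy at rest was tested with basal THY-Tau22 (n = 2) against basal WT (n = 3), the other comparison that the choice of the genes did not use. No member passed the test here either. The log2 fold change (THY-Tau22 minus WT) was -1.14 ± 0.51 (SE) for Tcf7l2, 0.97 ± 0.43 for Nxph3, -0.85 ± 0.51 for Slc17a6, 0.85 ± 0.47 for Tshz2 and -0.53 ± 0.32 for Prkcd, each with an edgeR adjusted p of 0.901. The remaining rows lay within 0.23 of 0. Of the 6 thalamic markers 4 were below 0, and Syt2 (0.23) and Rora (0.22) were above it, as were all 3 neocortical and subicular markers. The signs of Ntng1, Rora and Coro6 changed when some single libraries were left out. In 1 of the 10 rows, Tcf7l2, both THY-Tau22 libraries were below all WT libraries, beside 9.49% of all 16324 genes tested. Of the 10 rows, edgeR called 0 and DESeq2 called 0, and 2 had an unadjusted p under 0.05 in edgeR, as had 4.92% of all genes, with 0.0245% of all genes called by edgeR and 0.245% by DESeq2. Standard errors ran from 0.17 to 0.54 here, and from 0.09 to 0.37 in the training comparison.

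The basal values rested on single libraries. Basal WT 3 was the highest of the 5 for Slc17a6, Tcf7l2 and Ntng1, and basal WT 1 was the lowest for 6 of the 9 genes and the highest for Prkcd. Basal THY-Tau22 2 was the highest for 4 of the 9 genes. Without basal WT 3 the log2 fold change moved to -0.25 for Tcf7l2 and to -0.11 for Slc17a6, and without basal WT 2 it was 1.82 for Nxph3, which edgeR then called (adjusted p = 0.0396). Without THY-Tau22 1 the value was -0.31 for Slc17a6 and 1.18 for Tshz2, and without THY-Tau22 2 it was -1.64 and 0.47. Prkcd was at -0.15 without basal WT 1 and at -0.89 without THY-Tau22 2. Markers of the medial habenula, a nucleus on top of the thalamus, moved with basal WT 3. All 6 listed genes with a row were highest there, at a median of 7.32 times the median of the other 4 libraries, and their summed level was 45.8 CPM beside 16.8 to 21.0 CPM. Pou4f1 at 15.3 times and Gpr151 at 11.5 times, named after their values were seen, were the furthest above. Of 14 other thalamic markers, 11 were highest in basal WT 3, with a median ratio of 1.65, and Gbx2, also named after its values were seen, was at 2.11 CPM there and at 0.031 to 0.162 CPM in the other 4. Basal WT 1 in turn was the highest library for 9 of 9 white matter genes, at a median ratio of 1.60, and for 4 of 4 CA3 genes. The 14 choroid plexus genes summed to 1988 CPM in basal THY-Tau22 2, beside 703 CPM in THY-Tau22 1 and 598 to 716 CPM in WT. Across these genes edgeR and DESeq2 called 0 between the genotypes, 12 were above 0 in THY-Tau22, 8 had an unadjusted p under 0.05 in edgeR and the median log2 fold change was 0.83. For the 9 white matter genes the tools also called 0, 7 had an unadjusted p under 0.05 in edgeR and the median was -0.48. The part of these differences in the basal comparison was not tested beyond leaving the libraries out.

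In the learning libraries no single one stood out for the medial habenula as basal WT 3 did. The 6 medial habenula genes summed to between 12.3 and 21.4 CPM over the 9 libraries, and Gbx2 was at most at 0.156 CPM. The 5 habenula genes tested were above 0 between TAU MOL and TAU VEH, with a median log2 fold change of 0.32, edgeR and DESeq2 called 0 of them, and 0 had an unadjusted p under 0.05 in edgeR. The summed level of the 14 other thalamic markers ran from 289 to 362 CPM, with TAU MOL at 332 and 322 CPM and TAU VEH at 334 and 325 CPM. Adarb1 alone made up 63.0% to 70.4% of this sum, and without it TAU MOL was at 121 and 108 CPM and TAU VEH at 106 and 110 CPM, still with overlap. Between these groups, 0 of the 13 thalamic markers tested were called by edgeR and 0 by DESeq2, 2 had an unadjusted p under 0.05 in edgeR, 8 were above 0, and the median log2 fold change was 0.03 beside 0.01 for all genes. Of the 6 thalamic members, Slc17a6, Syt2 and Ntng1 were higher in both TAU MOL libraries than in both TAU VEH libraries. Rora was lower in both, and Prkcd and Tcf7l2 overlapped. The median of the other thalamic markers was near that of all genes. The members were chosen by this contrast, so nothing is read from setting them beside the other markers. In TAU VEH against WT VEH, edgeR called 1 of the 13 other thalamic markers tested, beside 14.4% of all genes. This was Lef1, a transcription factor of the Wnt pathway, at -0.74 ± 0.18 (SE). DESeq2 called 1 marker lower and 1 higher. Of the 13, 3 had an unadjusted p under 0.05 in edgeR beside 27.1% of all genes, 6 were above 0 and the median was -0.07. The 9 white matter genes summed to 6818 to 8888 CPM, apart from WT VEH_HC 2 at 4020 CPM.

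Neocortical and subicular markers outside the list were mostly above 0 between TAU MOL and TAU VEH. Of 12 other neocortical markers, edgeR called 0 between TAU MOL and TAU VEH and DESeq2 called 1, lower in TAU MOL, 6 had an unadjusted p under 0.05 in edgeR, 11 were above 0, and the median log2 fold change was 0.27. Of all genes, 6.33% had an unadjusted p under 0.05 in this comparison, which is the share to set beside this count and those of the other lists. Of 5 subicular markers, 0 were called by either tool, 2 had an unadjusted p under 0.05 in edgeR, 5 were above 0 and the median was 0.24. Between TAU VEH and WT VEH, neocortical markers called lower included Fezf2, a transcription factor of deep-layer projection neurons, at -0.68 ± 0.09 (SE), and Cux2, one of upper layers, at -0.43 ± 0.09 (n = 2 each). Fezf2 is also expressed in hippocampal neurons, and 4 of 5 CA1 markers were called lower in the same comparison, Wfs1 at -0.92 ± 0.18. With the GC and length correction Cux2, at -0.22, and Wfs1, at -0.68, were no longer called. Between TAU MOL and TAU VEH the median was 0.33 for the 5 CA1 markers, -0.35 for the 4 CA3 markers and 0.03 for the 6 dentate gyrus markers, of which edgeR called 0 and DESeq2 1, 2 and 0, with an unadjusted p under 0.05 for 3, 4 and 1 in edgeR.

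The choroid plexus, which lines the ventricle next to the hippocampus and is marked by Ttr, the transthyretin gene, and Kl, the klotho gene, moved along with the groups. Its 14 genes summed to 2192 and 3162 CPM in WT VEH, 159 to 417 CPM in WT VEH_HC, 463 and 542 CPM in TAU VEH and 1073 and 1183 CPM in TAU MOL. By edgeR all 14 were called between WT VEH and WT VEH_HC, higher in WT VEH, and 13 between TAU VEH and WT VEH, lower in TAU VEH. Between TAU MOL and TAU VEH edgeR called 0 and DESeq2 called 2, 12 had an unadjusted p under 0.05 in edgeR, and the median log2 fold change was 1.17. Ttr was at 582 and 630 CPM in TAU MOL and at 171 and 204 CPM in TAU VEH, and Kl was at 56.6 and 62.1 CPM beside 35.3 and 37.3 CPM. The lowest Slc17a6, Tshz2, Nxph3, Syt2 and Coro6 levels among trained mice were in TAU VEH, where the choroid plexus sum was also lowest among them. The untrained WT VEH_HC libraries had still lower choroid plexus sums. There Syt2 (47.2 to 53.2 CPM) and Coro6 (8.50 to 10.1 CPM) were above TAU VEH, and Slc17a6, Tshz2 and Nxph3 overlapped with it. Whether these genes and the choroid plexus genes share a source was not tested.

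**Figure D3:**
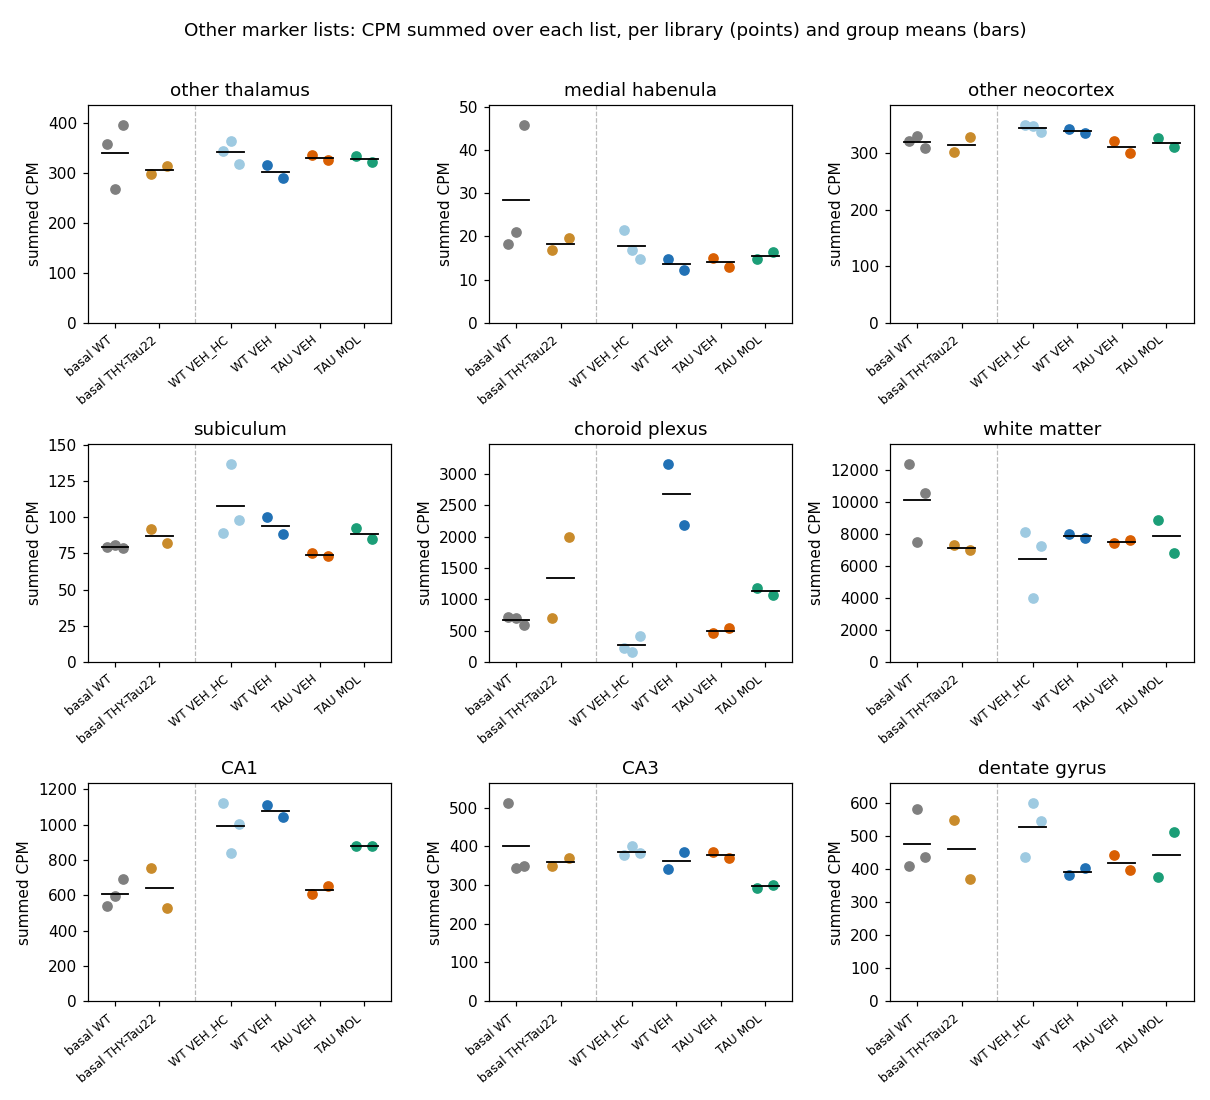
Summed CPM of the genes of 9 other marker lists (vertical axes, starting at 0) in each of the 14 libraries (points) and group means (bars), with a dashed line between the basal and learning tables. The medial habenula sum is highest in basal WT 3 (45.8 CPM) and between 12.3 and 21.4 CPM in the learning libraries, and the choroid plexus sum separates WT VEH (2192 and 3162 CPM) from TAU VEH (463 and 542 CPM).

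Over the 9 learning libraries the genes fell into 2 kinds by how each followed the mean of the other members (standardised log2 CPM). Pearson's r was 0.90 for Slc17a6, 0.86 for Nxph3, 0.82 for Tshz2, 0.66 for Syt2 and 0.56 for Coro6. It was between -0.10 and 0.03 for Tcf7l2, Prkcd, Ntng1 and Rora. Over the 5 basal libraries this split was not seen: Prkcd was at -0.46, Nxph3 at 0.15, and the other genes between 0.35 and 0.86. These r values are descriptions over libraries that fall into small groups, and the first 5 genes are those the choice had picked as higher in TAU MOL.

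**Figure D4:**
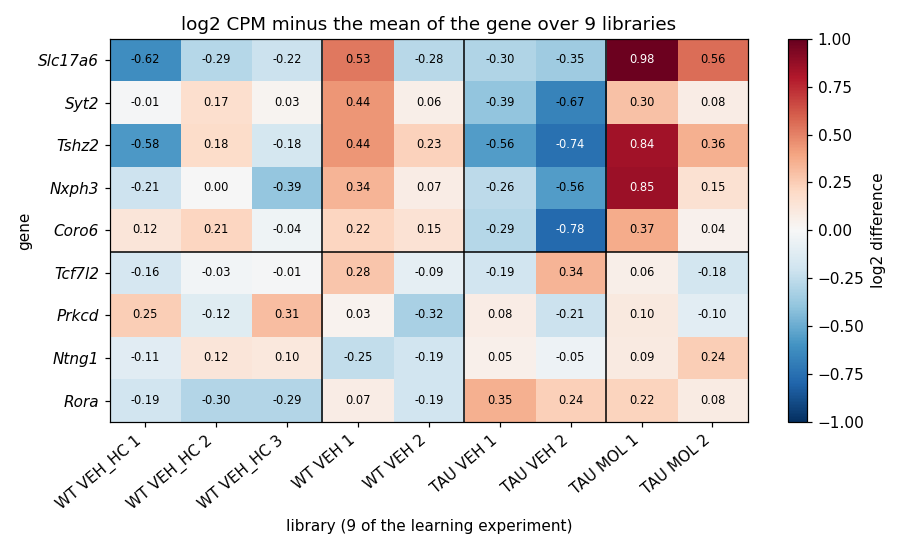
log2 CPM of each gene (rows) minus its mean over the 9 learning libraries (columns), as colour and as printed values, with lines between the 4 groups and between the 5 genes that were higher in TAU MOL and the other 4. Both TAU VEH libraries are below the mean and TAU MOL 1 is above it in all 5 upper rows, with the largest value of 0.98 for Slc17a6.

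Genes outside the list with the profile most like the mean of the 9, ranked over the 12413 genes that reached an average of 100 counts in a library, were Sft2d2 (r = 0.92), Sowahb (0.92), Fam43a (0.92), Zic5 (0.91) and Rnf152 (0.91) over the 9 learning libraries. Over the 5 basal libraries the same 5 genes were at 0.33, 0.74, 0.13, -0.21 and 0.85. Between TAU MOL and TAU VEH the log2 fold change of Sowahb was 0.73 ± 0.25 (SE) and that of Sft2d2 0.17 ± 0.09. The r was thus high in both tables for Sowahb and Rnf152 and below 0 in the basal table for Zic5.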

How the data were processed

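RNA-seq libraries were read for 14 mice in 2 tables. Per the labels, the authors made poly-A libraries without strand information, mapped single-end reads to mm9 with TopHat2 2.0.10 and Bowtie2 2.1.0, and counted unique reads per gene with HTSeq 0.5.4p3. They deposited raw counts and, beside them, a normalized signal, in which the authors had divided the counts of a library by 1 factor. The signal was used only to check columns, of which 0 lacked a sample. Fold changes and p-values of the authors' own comparisons in the tables were not used.

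The counts were tested with edgeR 4.0.16 in R 4.3.3 (TMM, filterByExpr, quasi-likelihood F test, Benjamini-Hochberg over all genes tested), the basal libraries alone and the 9 learning libraries in 1 fit. The 2 limits on a call follow the study. DESeq2 1.42.0 was the alternative, and the tests were first run on simulated counts. Positions, exonic lengths and overlaps came from NCBIM37 (mm9) with GENCODE, promoters from RefSeq. Profiles used log2 CPM with a pseudocount of 0.1.

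The 9 genes and the other lists (thalamus, medial habenula, neocortex, subiculum, choroid plexus, white matter, CA1, CA3 and dentate gyrus) were chosen with earlier results of these data known. Named beyond them are, per list, the called genes with the 3 largest changes among those with at least 100 counts on average, Ttr, Kl, Prox1, Wfs1 and Grik4, and the 5 most similar profiles. The study's methods state that some learning samples, from mice of a single litter, were left out after their variability was seen. The 9 mice kept outnumber the litters left, so some share a litter, and how litters fall over the groups is not given in the sources used here. The p-values measure the spread between these libraries. Total counts per library were 24693713 to 52180305, and the spread between mice (common coefficient of variation 0.129 basal, 0.084 learning), not the depth, limits most of these genes. The second Ntng1 record is limited by depth, and depth matters more in TAU VEH 2, which had the fewest counts. Alternatives were other scalings, filters, a correction for GC content and length (loess span 0.3), the replicate number as a block, only the groups compared, no limit on the fold change and leaving out each library. Single values of some genes of the other lists are not reported here.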

Additional observations from a re-analysis of the deposited data

How the results depend on the processing

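Calls of the 9 genes (10 rows) were recomputed under each alternative, and with a library left out only where each group compared kept at least 2. In the basal comparison, 0 rows were called, 2 without a filter on low counts (Nxph3 and Tcf7l2), and 0 to 1 when each library was left out, the 1 being Nxph3 without basal WT 2. In the training comparison, 0 rows were called, 4 without a filter, 1 with the GC and length correction, and 0 to 1 when each library was left out (Tshz2 without WT VEH_HC 2). Between TAU MOL and TAU VEH, 0 rows were called, 5 by DESeq2, 5 without a filter, 3 when only the 2 groups were fitted, and 0 to 2 when each library was left out (Syt2 and Tshz2 without WT VEH_HC 2, the library with the lowest white matter sum). Of the genes of the other lists, 0 were called in the basal comparison, 13 without a filter and 1 with the replicate block. In training, 17 were called, and 32 without a filter. Between TAU MOL and TAU VEH, 0 were called, 6 by DESeq2, 25 without a filter, 14 with only the 2 groups, and 0 to 5 when each library was left out. Between TAU VEH and WT VEH, 23 were called, 19 with the GC and length correction and 31 without a filter. Between TAU MOL and WT VEH, 11 were called, 23 without a filter and 1 with the GC and length correction. The cause of these shifts was not tested. The GC and length correction left 2 of the 4 calls of members between TAU VEH and WT VEH (Syt2 and Tshz2), and 484 calls in place of 2423 over all genes, and no call of Ntng1 between TAU MOL and WT VEH, which was also lost without TAU VEH 1 or TAU VEH 2, at a value of 0.39 in both as with all libraries. The call of Rora between TAU VEH and WT VEH was also lost without TAU MOL 1 or TAU MOL 2, and Nxph3 was then called. The value of Rora was 0.35 (log2) in both fits and with all libraries, and the limit on the adjusted p was only just missed. Scaling by library size alone called 2578 genes higher and 1020 lower there, in place of 608 and 1815, with a median of all genes of 0.15 in place of 0.00. Of 780 recomputed values of single genes, 27 changed sign, 23 of them when a library was left out and 4 otherwise, in results of at most 0.34 in size on the log2 scale. In the basal and training comparisons, 5 values changed sign in fits that kept at least 2 libraries a group, all of them basal: with the replicate block, Ntng1 was at 0.036 and its second record at 0.23 (log2). When each library was left out, Ntng1 ran from -0.26 to 0.024, its second record from -0.58 to 0.20 and Coro6 from -0.32 to 0.49, the ranges including fits with 1 library in a group. In such fits basal Rora was at -0.17 without THY-Tau22 2, and Syt2 and Tcf7l2 in training at -0.011 and -0.028 without WT VEH 1. Deviations of same-numbered libraries correlated at -0.16 to -0.06 over 2 basal pairs and at -0.04 to 0.24 over 12 learning pairs, of which 4 exceeded 0.1. In a group of 2 libraries the deviations mirror each other, so this check cannot exclude that the replicate numbers pair the libraries. With the replicate number as a block, 37 genes were called in place of 4 in the basal comparison, 3000 in place of 1413 in training, and 0 in both fits between TAU MOL and TAU VEH.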
